A study of Sus scrofa with 6 samples.

Results

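The miRNAs described here are those that mark leukocytes or respond to inflammation, measured in the left atrium (LA) of pigs after brief atrial fibrillation (AF) and of sham pigs. All array probes named for miR-142, miR-146a, miR-146b, miR-150, miR-155 or miR-223, with any arm or copy suffix, were taken. This gave 8 of the 322 pig miRNA probes, namely both arms of miR-142, miR-146a and miR-155 and a single probe each for miR-146b and miR-150. miR-223 was not analysed here. The study asked how brief AF alters atrial miRNAs. The paced group (the PAF group of the labels, 3 animals) received bursts of rapid right atrial pacing through a catheter after the beta blocker esmolol, which set off short, self-limiting AF. The sham-control group (3 animals) was not paced. LA tissue was taken on the day after pacing, and each animal gave 1 array. The study's methods describe Large White pigs of 3 months, whereas the labels speak of neonatal piglets.

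A miRNA pairs with messenger RNAs mainly through its seed, a short stretch near the 5′ end, and lowers the output of the genes it pairs with. miR-142 is made almost only in blood-forming cells and their progeny, and miR-150 is abundant in mature lymphocytes. miR-155 is switched on when lymphocytes and macrophages are activated. miR-146a is induced by NF-κB signalling and restrains that pathway by acting on its adaptors TRAF6 and IRAK1. miR-146b has the same seed as the 5p arm of miR-146a. In whole atrial tissue these miRNAs can come from resident or circulating leukocytes, and for some of them from myocardial, vascular or connective tissue cells as well. Fewer cells of a type and less RNA per cell cannot be told apart in such samples.

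The target sequences of the 8 probes, as the array files give them, are shown first because they set which signals can be read apart. They run from 5′ to 3′, and capitals mark the seed, bases 2 to 8.
miR-142-5p: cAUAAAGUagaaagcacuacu
miR-142-3p: uGUAGUGUuuccuacuuuaugg
miR-150: uCUCCCAAcccuuguaccagug
miR-155-5p: uUAAUGCUaauugugauagggg
miR-155-3p: uCCUACAUguuagcauuaaca
miR-146a-5p: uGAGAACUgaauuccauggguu
miR-146a-3p: cCUGUGAAguuuaguucuucag
miR-146b: uGAGAACUgaauuccauaggc

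miR-146a-5p and miR-146b carry the same seed, and no other target on the array has it. None of the other 6 members shares its seed with any probe of the array. miR-146a-5p and miR-146b are identical over their first 17 bases. Counted from the 5′ end and with miR-146a-5p as the first base of each pair, they differ by G18A and U21C, and miR-146a-5p is 1 base longer. That is 3 edits in all, whereas each of the other 6 members is 7 or more edits from its nearest target on the array. Whether RNA of miR-146a binds the miR-146b probe, or the reverse, was not tested. The longest run of bases that pair between the 5p and 3p arms is 10 for miR-142, 10 for miR-155 and 6 for miR-146a.

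The arrays were read against their empty spots, of which each had 786. A probe counted as well above background if its 9 repeat spots had a median over 3 SD higher than the empty-spot median of that array, the SD being taken over empty spots. The empty spots read 64.7 to 214.1 scanner units (medians) on the sham arrays and 242.5 to 399 on the paced arrays, so the groups did not overlap in background. On paced replicate 1 the median miRNA spot, at 376 units, lay below the median empty spot, at 399. Between 104 and 175 of the 322 probes were well above background on an array, and 104 (32.3%) on all 6. Of 7 cardiomyocyte probes, 5 were among these, namely those of miR-1, miR-133a-3p, miR-133a-5p, miR-133b and miR-499-5p. miR-208b passed in 3 sham and 2 paced animals, and miR-499-3p passed on 0 arrays. Of 3 red cell probes, 1 was among the probes passing on all arrays, that of miR-451.

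Of the 8 members, miR-150 and miR-146a-5p were well above background on all 6 arrays. miR-155-5p passed on 4 arrays and miR-146b on 2. Both arms of miR-142, miR-146a-3p and miR-155-3p passed on none. Per array, 2, 4 and 3 members passed in sham replicates 1, 2 and 3, and 2, 3 and 4 in paced replicates 1, 2 and 3.

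**Figure D1:**
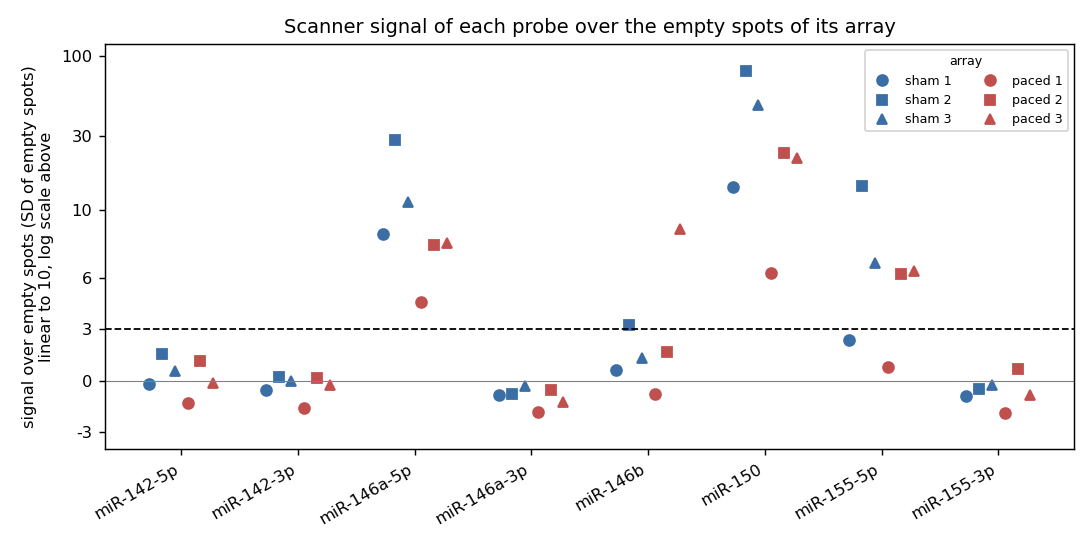
Scanner signal of each probe minus the median of the empty spots of its array, in SD of those empty spots (y axis, linear up to 10 and logarithmic above). Each point is 1 array, the dashed line is the limit of 3 SD, and miR-150 and miR-146a-5p lie above it on all 6 arrays while miR-146b stands out on paced replicate 3 at 8.89 SD.

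With quantile-normalized arrays, none of the 8 members passed the test between paced and sham animals. When arrays were instead scaled to the detected probes' median, 6 of the 8 passed the adjusted threshold in limma, as did 171 of all 322 probes, but limma then gave every probe the same pooled SE of 0.19 in place of its own. On the same scaled values the methods' t-test, with each probe's own variance, called 0 of the 8 and 1 of the 322 after adjustment, and 4 of the 8 and 45.0% of all probes at an unadjusted p of 0.05. The comparison was made with limma on background-corrected, quantile-normalized log2 intensities of the full set of 322 probes, with Benjamini-Hochberg adjustment. At an unadjusted p of 0.05 the test called 0 of the 8 members, where it called 34 of all 322 probes (10.6%). After adjustment it called 0 members and 0 probes (0%). The methods' t-test on the same values also called 0 of the 8 at an unadjusted p of 0.05, where it called 39 of all 322 probes (12.1%), and 0 of the 322 (0%) after Benjamini-Hochberg adjustment. The values of the groups overlapped for all 8 members, whereas they did not overlap for 56 of the 322 probes (17.4%). The lowest p among the members was 0.225 and the lowest adjusted p 0.654, both for miR-142-5p. The median difference, paced minus sham, was 0.06 on the log2 scale over the members and 0.00 over all probes. With 3 animals in each group an exact permutation test cannot give a p below 0.1.

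**Figure D2:**
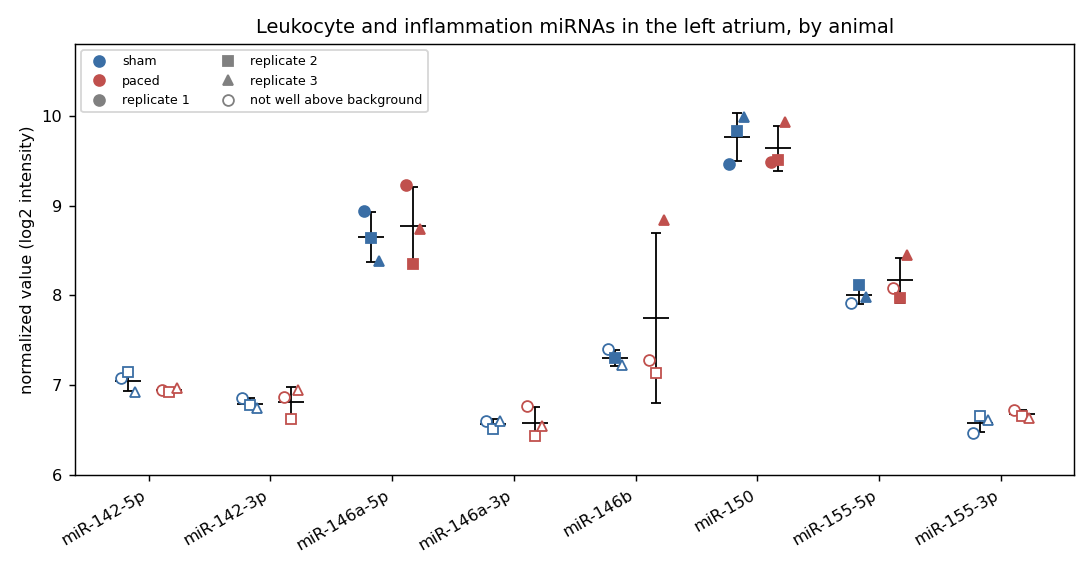
Normalized log2 intensity of the 8 probes (y axis) in each sham and paced animal, with the mean and SD of each group of 3; open symbols mark arrays on which the probe was not well above background. The groups overlap for every probe, and paced replicate 3 lies apart from the other animals for miR-146b; heights of different probes cannot be set against each other.

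Of the miRNAs tied to the blood lineage, miR-150 gave a clear signal in every animal. Its 9 repeat spots had a median of 1072, 735 and 897 scanner units in sham replicates 1, 2 and 3, and of 714, 963 and 1008 units in paced replicates 1, 2 and 3. The signal lay from 6.27 SD (paced replicate 1) to 80.3 SD (sham replicate 2) above the empty spots. Normalized, the log2 values were 9.47, 9.83 and 9.99 in sham and 9.49, 9.50 and 9.93 in paced animals. Each group thus held values near 9.5 and values near the top of the range, and no animal stood apart. Sham animals averaged 9.76 ± 0.27 and paced animals 9.64 ± 0.25 (SD, n = 3 each). Subtracting sham from paced gave -0.12 (SE 0.17), an adjusted p of 0.837 in limma, and a 95% confidence interval from -0.53 to 0.29. It was negative with each animal left out in turn, from -0.28 without paced replicate 3 to -0.01 without sham replicate 3.

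The authors' processed values of miR-150 were 544, 764 and 867 in sham and 583, 645 and 794 in paced animals. Sham replicate 1 was the lowest and sham replicate 3 the highest animal there too.

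The probes of miR-142, the miRNA with the narrowest tie to blood-forming cells among the members, were at the level of the empty spots. For miR-142-5p the signal ran from -1.33 SD (paced replicate 1) to 1.58 SD (sham replicate 2) relative to the empty median. For miR-142-3p it ran from -1.60 SD (paced replicate 1) to 0.19 SD (sham replicate 2). Neither arm was well above background in either group, so the differences below are between background signals and are no measure of a fold in miR-142. The measured log2 values of miR-142-5p were 7.08, 7.14 and 6.92 in sham and 6.95, 6.92 and 6.97 in paced animals. Subtracting sham from paced gave -0.10 (SE 0.08), an adjusted p of 0.654 in limma, and sham replicate 3 lay among the paced animals. For miR-142-3p the values were 6.86, 6.78 and 6.74 in sham and 6.86, 6.62 and 6.95 in paced animals. Paced minus sham was 0.02 (SE 0.10) with an adjusted p of 0.966 in limma. Measured against the 15 nearest empty spots, miR-142-5p passed in 1 sham animal and miR-142-3p in none.

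miR-155-5p, the 5p arm of the activation-linked miR-155, passed the detection limit in 2 animals of each group. The repeat spots had a median of 357, 184 and 229 scanner units in sham replicates 1, 2 and 3 and of 440, 434 and 480 units in paced replicates 1, 2 and 3. Sham replicate 1 and paced replicate 1, the arrays with the widest scatter of empty spots, fell short of the limit at 2.36 and 0.81 SD. The normalized log2 values were 7.91, 8.11 and 7.99 in sham and 8.09, 7.97 and 8.45 in paced animals. Paced replicate 3 was the highest animal, and the other 2 paced animals lay within the sham range. The means were 8.005 ± 0.10 (SD, n = 3) and 8.17 ± 0.25 (SD, n = 3), so that paced minus sham was 0.16 (SE 0.13) with an adjusted p of 0.705 in limma and a 95% confidence interval from -0.15 to 0.48. Without paced replicate 3 the difference was 0.03.

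The opposite arm, miR-155-3p, was below the median of the empty spots on all arrays except paced replicate 2, where it was 0.70 SD above. Its log2 values were 6.47, 6.66 and 6.61 in sham and 6.73, 6.66 and 6.63 in paced animals. The signals were not well above background in either group, and paced minus sham was 0.09 (SE 0.08) with an adjusted p of 0.705 in limma.

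miR-146a-5p, the 5p arm of the NF-κB-induced miR-146a, was well above background in all animals, from 4.62 SD (paced replicate 1) to 28.4 SD (sham replicate 2). The repeat spots had a median of 736, 302 and 298 scanner units in sham replicates 1, 2 and 3 and of 631, 487 and 537 units in paced replicates 1, 2 and 3. The normalized log2 values were 8.94, 8.64 and 8.38 in sham and 9.22, 8.35 and 8.74 in paced animals. Paced animals included both the highest and the lowest value. Sham animals averaged 8.65 ± 0.28 and paced animals 8.77 ± 0.44 (SD, n = 3 each). Subtracting sham from paced gave 0.12 (SE 0.24), an adjusted p of 0.883 in limma, and a 95% confidence interval from -0.45 to 0.68. Without paced replicate 1 the difference was -0.12 and without paced replicate 2 it was 0.32. Its spread within groups, a pooled SD of 0.37, was the 13th largest of the 322 probes.

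The 3p arm of miR-146a lay below the empty median on all 6 arrays. Its log2 values were 6.60, 6.51 and 6.60 in sham and 6.77, 6.44 and 6.55 in paced animals. Paced minus sham was 0.01 (SE 0.10) with an adjusted p of 0.966 in limma.

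miR-146b gave the widest spread of the members, with 1 animal far above the rest. The repeat spots had a median of 252, 91.9 and 139 scanner units in sham replicates 1, 2 and 3, and of 359, 294 and 565 units in paced replicates 1, 2 and 3. In paced replicate 3 all 9 repeat spots read between 516 and 614 units, against an empty-spot median of 261 and a limit of 364, so that every spot of the probe was high. In the other 2 paced animals and in sham replicates 1 and 3 the probe was not well above background. In sham replicate 2, the array with the lowest background, it passed the limit narrowly at 3.26 SD.

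**Figure D3:**
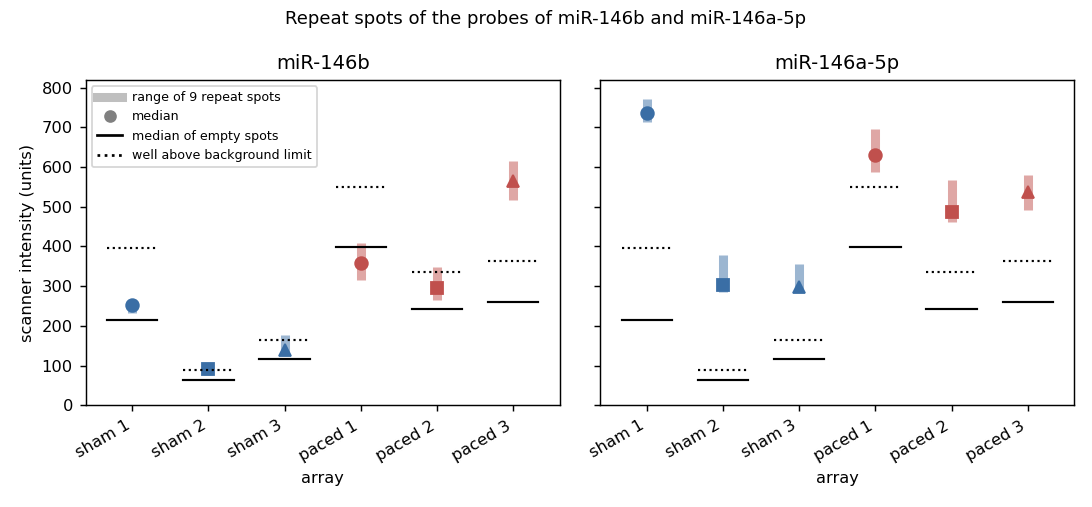
Scanner intensity (y axis) of the 9 repeat spots of the miR-146b and miR-146a-5p probes on each array, shown as their range (bar) and median (symbol), with the median of the empty spots (solid line) and the limit for well above background (dotted line). All miR-146b spots of paced replicate 3 lie above its limit, while miR-146a-5p exceeds the limit on every array and is not highest on that one.

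The normalized log2 values of miR-146b were 7.40, 7.30 and 7.22 in sham animals and 7.28, 7.13 and 8.84 in paced animals. The other 5 animals lay between 7.13 and 7.40, and paced replicate 3 lay 1.44 above the highest of them. Since the probe was not well above background on 4 of those 5 arrays, the gap is no measure of a fold, and its size moved with the background handling. As measured, this gap was the largest of the 322 probes. The second largest, 0.48 for miR-424-5p, was in paced replicate 2, and miR-146b was the only probe with a gap above 1. The gap was singled out after its values were seen and has no test. It was also the largest of all probes under each of the other background corrections, normalizations and spot summaries tried on the scanner values, from 1.05 without normalization to 2.98 with plain subtraction of the background. The authors' processed values of miR-146b were 44.9, 37.9 and 33.4 in sham and 50.3, 29.4 and 336 in paced animals. On their log2 scale the gap was 2.74, which 6 other probes exceeded.

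Between groups, miR-146b averaged 7.31 ± 0.09 in sham animals and 7.75 ± 0.95 in paced animals (SD, n = 3 each). Subtracting sham from paced gave 0.44 (SE 0.42), which was smaller than the spread between paced animals. With the probe well above background in 1 animal of each group, this too rests mainly on background signal and is no measure of a fold. The adjusted p was 0.740 in limma, and the 95% confidence interval ran from -0.57 to 1.45. Without paced replicate 3 the difference was -0.10 (limma, adjusted p = 0.871). With plain subtraction of the background and all animals it was 0.98 (SE 0.96). The high value of paced replicate 3 was not shared by miR-146a-5p, whose value in that animal, 8.74, was the third highest of the 6. In paced replicate 1, where miR-146a-5p was highest, miR-146b was at 7.28 and below the empty median. miR-155-5p was highest in paced replicate 3 as well, and miR-150 was second highest there.

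**Figure D4:**
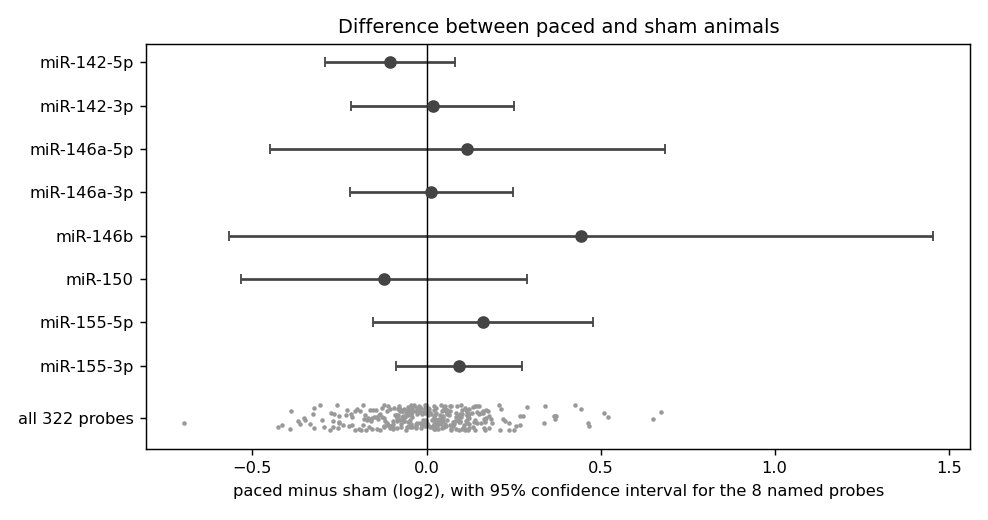
Difference between paced and sham animals (x axis, log2) for each of the 8 probes with its 95% confidence interval from limma, above the differences of all 322 probes as grey points. The 8 intervals include 0, and that of miR-146b is the widest.

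The scatter of the repeat spots gives the measurement error within an array. On the log2 scale the SD over the 9 spots of an array lay between 0.03 and 0.16 for miR-146a-5p and between 0.03 and 0.22 for miR-150. For miR-146b it was 0.12 in paced replicate 3 and reached 0.32 in paced replicate 1. For miR-142-3p, at background, it reached 0.47.

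Neighbours in pattern were sought for the 2 members well above background on all arrays, as the smallest Euclidean distance between log2 values centred on each probe's mean, among the other 103 such probes and over the 6 arrays. For miR-146a-5p the closest were miR-222 (distance 0.25), miR-221-3p (0.35) and miR-130b (0.41), where the median distance was 0.76. miR-222 had log2 values of 9.08, 8.84 and 8.75 in sham and 9.26, 8.56 and 8.98 in paced animals, and like miR-146a-5p was highest in paced replicate 1. For miR-150 the closest were let-7c (0.31), let-7a (0.36) and let-7d-5p (0.36), with a median distance of 0.68. These 6 neighbours had adjusted p values from 0.775 to 0.966 in limma, and the distances are a description of 6 arrays with no test.

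Other miRNAs that take part in immune responses were read from a list of miR-9, miR-21, miR-34a, miR-125a, miR-125b, miR-132, miR-147, miR-181a, miR-181b, miR-187, miR-212 and the miR-17-92 members. It matched 18 probes, of which 9 were well above background on all arrays and 4 on none. In limma 0 of the 18 were higher and 2 lower in paced animals at an unadjusted p of 0.05, where 3.42% and 7.14% of all probes were, and 0 passed the adjusted threshold. The 2 are miR-18a and miR-17-3p of the miR-17-92 cluster, and the paper also lists miR-17-3p as lower in the paced LA. The other probes of that cluster on the list, miR-17-5p, miR-19a, miR-19b, miR-20a and miR-92a, had differences from -0.10 (miR-19b) to 0.03 (miR-17-5p) with groups that overlapped. miR-18a had log2 values of 8.01, 7.81 and 7.76 in sham and 7.76, 7.50 and 7.28 in paced animals. Paced minus sham was -0.35 (SE 0.14) with an adjusted p of 0.414 in limma. miR-17-3p had values of 7.52, 7.56 and 7.38 in sham and 7.30, 7.23 and 7.10 in paced animals. Paced minus sham was -0.27 (SE 0.09) with an adjusted p of 0.309 in limma. Neither probe was well above background in every animal of a group, and with scaling of arrays to the detected probes' median both signs turned, to 0.12 and 0.29, though both stayed below the median of all probes, 0.44 under that scaling. Without normalization that of miR-17-3p turned as well, to 0.13, against a median of all probes of 0.27.

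Red cell miRNAs bear on blood left in the tissue. miR-451, the dominant miRNA of red cells, had log2 values of 14.04, 13.53 and 13.61 in sham and 13.54, 12.97 and 13.57 in paced animals. Paced minus sham was -0.37 (SE 0.20) with an adjusted p of 0.507 in limma. For miR-451 it was -0.65 without normalization and -0.48 with scaling to the detected probes' median. miR-486 had values of 8.50, 8.96 and 8.99 in sham and 7.92, 8.24 and 8.20 in paced animals, without overlap, as for 17.4% of all probes. It was the 1 of the 3 red cell probes called lower at an unadjusted p of 0.05, where 7.14% of all probes were. The values of miR-451 overlapped between the groups. The paper lists miR-486 as reported in mouse skeletal muscles, and the part of muscle in its signal was not tested. For miR-486 paced minus sham was -0.70 (SE 0.15) with an adjusted p of 0.148 in limma. In paced replicate 1 this probe was not well above background, so the size of the difference rests partly on background signal. miR-144 passed the detection limit on 0 arrays. The log2 of the summed level of these 3 probes ran from 13.60 to 14.08 in sham and from 13.04 to 13.61 in paced animals. That of the 8 members ran from 11.00 to 11.10 in sham and from 10.85 to 11.37 in paced animals, lowest in paced replicate 2, as for the red cell probes, and highest in paced replicate 3. Both sums add intensities of different probes, some of them at background, and the brightest probes weigh most. Neither sum is therefore a level of red cell or leukocyte RNA. The part of blood content in the members' values was not tested. Of the other marker lists, at an unadjusted p of 0.05 in limma, 0 of 7 cardiomyocyte and 0 of 5 fibroblast probes were called, where 10.6% of all probes were. Of the 2 endothelial probes, miR-126-5p was higher in paced animals (difference 0.37, SE 0.13, adjusted p = 0.360), where 3.42% of all probes were, but it passed the detection limit on 0 arrays. Without normalization its difference was 0.81 and with scaling to the detected probes' median 0.98, against medians of all probes of 0.27 and 0.44. The other, miR-126-3p, passed the detection limit on all 6 arrays and differed by -0.02 (SE 0.10, adjusted p = 0.935). Its difference was -0.38 without normalization and -0.21 with that scaling. Of the 4 smooth muscle probes, miR-143-3p was lower (difference -0.32, SE 0.10, adjusted p = 0.309), where 7.14% of all probes were, and it passed the limit on all 6 arrays. The difference of miR-143-3p was -0.62 without normalization and -0.45 with scaling to the detected probes' median. The paper also lists miR-143-3p as lower in the paced LA.

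Putting the arrays on another scale shifted the median of all probes as well. Under scaling to the detected probes' median, the median difference of all probes moved to 0.44. The same scaling left the 2 members well above background on all arrays at 0.21 (miR-146a-5p) and -0.09 (miR-150), below that shift. The other 6 lay above it, from 0.48 (miR-146a-3p) to 1.01 (miR-146b), and 4 of these had passed the detection limit on 0 arrays. The empty-spot signal was higher on each paced array, and its part in these shifts was not tested.

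**Figure D5:**
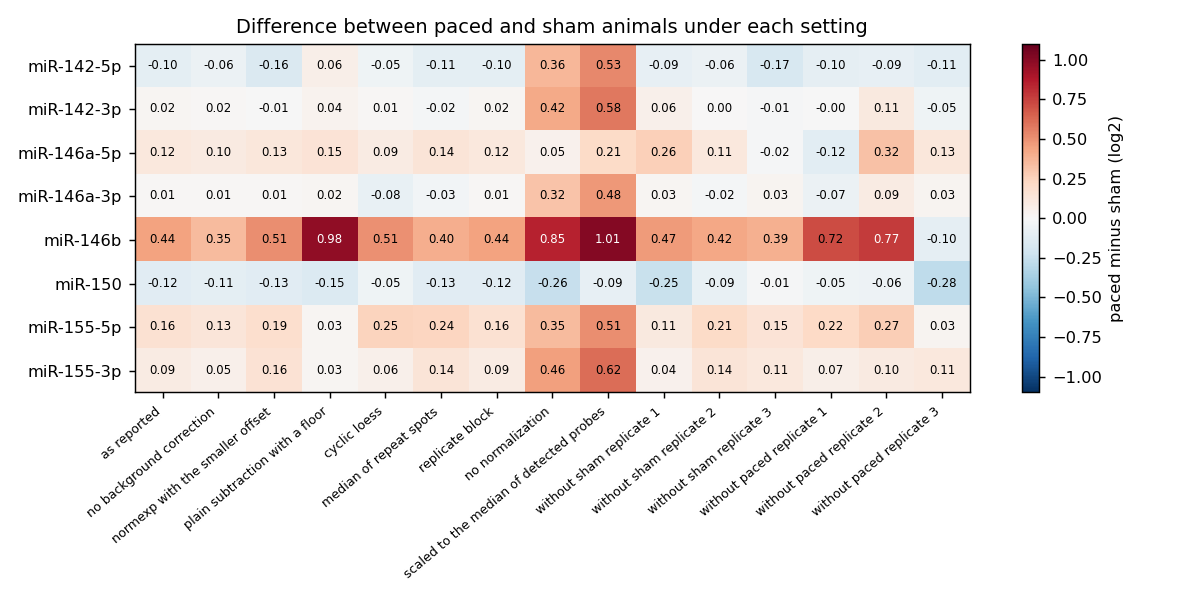
Difference between paced and sham animals (log2, colour and printed value) for each of the 8 probes under the reported processing and 14 alternatives computed from the scanner values. The values of miR-146b are positive except without paced replicate 3, and, of the settings plotted, the 4 probes at background reach 0.32 or more without normalization and under scaling to the detected probes' median.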

How the data were processed

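LA RNA of 3 paced and 3 sham pigs was hybridized by a service provider to 1-colour pig miRNA arrays (Cy3, 322 probes with 9 repeat spots), 1 per animal. The authors deposited scanner intensities, the median pixel intensity of each spot, neither background-corrected nor normalized. They also deposited processed intensities, which appear background-subtracted and normalized by a method not given in the sources used here, and which served as an alternative only. Scanner values of all 3968 spots were corrected with normexp (offset 50) in limma 3.58.1 (R 4.3.3). Control spots were dropped, and miRNA spots were quantile-normalized, log2-transformed and averaged over repeats. Paced and sham animals were compared with lmFit and eBayes over all 322 probes and adjusted by Benjamini-Hochberg. With 3 arrays per group, precision is limited. No slide or scan batch was used. The members and lists were chosen with earlier results of these data known. All members are named, with the 3 nearest probes in pattern of those well above background throughout, and list probes at an unadjusted p of 0.05. Alternatives changed the background correction (none, offset 10, subtraction with a floor of 32), normalization, input values, filter, spot summary, test, replicate block, animals and detection limit. Plots came from matplotlib 3.10.9 under Python 3.11.15.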

Additional observations from a re-analysis of the deposited data

How the results depend on the processing

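Signal over background limits the dim members, since 4 of the 8 passed the detection limit on 0 arrays. Under scaling to the detected probes' median, the differences became 0.58 for miR-142-3p, 0.53 for miR-142-5p, 0.48 for miR-146a-3p, 1.01 for miR-146b, 0.62 for miR-155-3p and 0.51 for miR-155-5p, all past the adjusted threshold in limma, which gave all probes 1 pooled SE (0.19) there. With each probe's own variance, a test added after seeing the data, 0 members and 1 probe passed it, the members' adjusted p running from 0.0857 to 0.769, and 4 members and 45.0% of probes were at the unadjusted threshold. The counts under that scaling were 56.2% of probes at an unadjusted p of 0.05, against 10.6% as reported (176 higher and 5 lower in paced animals, against 11 and 23 as reported), 171 after adjustment, 6 members under either threshold, and groups without overlap for 190 probes and 6 members. Without normalization the median difference of all probes was 0.27, miR-142-5p turned to 0.36, 4.66% of probes (15 higher, 0 lower) and 1 member (miR-146b, 0.85, adjusted p = 0.573) were at the unadjusted threshold, and 17 probes did not overlap. There too limma gave all probes 1 pooled SE (0.33), and with each probe's own variance 0 members and 1.24% of probes were at the unadjusted threshold. Signs also turned for miR-142-5p with plain subtraction (0.060), for miR-142-3p with an offset of 10 (-0.0085) and with the median of repeat spots (-0.022), and for miR-146a-3p with cyclic loess (-0.078) and with the median of repeat spots (-0.028), where 1 member (miR-155-3p) and 47 of all 322 probes did not overlap. With plain subtraction the difference was 0.98 (SE 0.96) for miR-146b and 0.025 (SE 0.38) for miR-155-5p. That of miR-150 was -0.26 without normalization and -0.051 with cyclic loess. The filter on dim probes left miR-146a-5p and miR-150 of the members, with 3.97% of its probes at the unadjusted threshold and 8 without overlap. On the authors' processed values in log2 the differences were 2.03 (SE 2.69) for miR-155-3p, -0.56 (SE 0.33) for miR-142-5p, 1.04 (SE 0.96) for miR-146b, 0.34 (SE 0.28) for miR-155-5p, 0.10 (SE 2.03) for miR-146a-3p and 0.03 (SE 0.96) for miR-142-3p, and 0 members were at the unadjusted threshold. The split of probes at that threshold was 20 higher and 11 lower on the authors' processed values in log2, and 18 and 22 with the trend and robust prior. The cause of these changes was not tested.

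Leaving out 1 animal at a time gave differences from -0.047 to 0.11 for miR-142-3p, from -0.067 to 0.086 for miR-146a-3p, from -0.12 to 0.32 for miR-146a-5p, from -0.10 to 0.77 for miR-146b, from -0.17 to -0.062 for miR-142-5p, from 0.043 to 0.14 for miR-155-3p and from 0.03 (without paced replicate 3) to 0.27 (without paced replicate 2) for miR-155-5p. The share of probes at the unadjusted threshold ran from 5.59% (without paced replicate 3) to 21.4% (without paced replicate 1), and was 6.21% without sham replicate 2. After adjustment they ran from 0 to 9 (without paced replicate 1). Probes without overlap ran from 74 to 128 and members from 0 to 1, and no member passed either threshold. Over all settings the adjusted p ran from 0.365 to 0.991 for miR-146a-5p and from 0.645 to 0.991 for miR-150. The gap of miR-146b, examined after its values were seen, moved beyond its spread between animals to 2.98 with plain subtraction and 2.74 on the authors' processed values. Against the nearest empty spots miR-142-5p was well above background on 1 array, miR-146b on 3 and miR-155-5p on 5, and with a limit of 2 SD miR-155-5p on 5. Samples share replicate numbers across groups. Deviations of same-numbered animals correlated at 0.17, -0.04 and 0.14 across all probes. Across those well above background on all arrays the values were 0.18, -0.01 and 0.22. With 3 animals per group these values cannot decide whether the numbers pair animals. A replicate block changed the SE from 0.24 to 0.15 for miR-146a-5p and from 0.17 to 0.10 for miR-150. With the replicate block 10.2% of probes and 0 members were at the unadjusted threshold and 0 after adjustment, and the adjusted p of miR-146b was 0.666.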
